A study of Rattus norvegicus with 40 samples.

Results

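Hippocampal RNA from female rats whose dams ate chow with 250 ppm lead acetate was compared with RNA from female rats on control chow, by 4 arrays against 4. These 8 arrays were chosen by the title numbers of the samples, 2857 to 2860 for the exposed rats and 1974 to 1977 for the controls, out of 40 arrays in 10 groups of 4. The dams went on lead chow 10 days before breeding and stayed on it until weaning, after which the pups ate control chow until they were killed at postnatal day 55. The control rats, labelled female and 0 ppm, ate control chow throughout, and they share age, tissue and array type with the exposed rats. 4 further groups entered single comparisons: females exposed perinatally to 750 ppm, females exposed to 250 ppm from birth to postnatal day 45 (the postnatal window), males exposed perinatally to 250 ppm, and male controls. The other 4 groups, females exposed postnatally to 750 ppm and males exposed perinatally to 750 ppm or postnatally to 250 or 750 ppm, are given beside them for the myelin list and a few genes. Strain and litter are not given in the sources used here, so the p-values speak only for the scatter among these arrays, which may be technical, and their number limited the precision.

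Lead is a neurotoxicant of the developing brain that replaces calcium and zinc in proteins, blocks NMDA receptors and inhibits heme synthesis. The hippocampus stores new memories through the dentate gyrus and the CA fields, and its fibre tracts, the alveus and the fimbria, are wrapped in myelin. Myelin is made by oligodendrocytes, which arise from precursor cells and build a membrane rich in galactolipids and in proteins such as Mbp and Mog. Late maturing oligodendrocytes switch on these genes together under the transcription factors SOX10 and MYRF.

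The signal was the log2 value of each probe set as deposited, so a difference of 1 is a doubling, and a difference was called at an adjusted p under 0.05 over all 29214 probe sets. Array medians lay between 6.96 and 7.06, pairs of the 8 arrays had correlations of 0.9923 to 0.9969 over probe sets, and both groups had a median SD of 0.103. Of 8 defining markers of dentate granule, CA1 and CA3 cells that could be matched, 7 had means at or above the 67.3 percentile. Spink8 was at 4.96 to 5.29, percentile 16.6. Percentiles are among the 14506 genes with a symbol, each at its brightest probe set. In 2 respects the control arrays stood apart from their labels or from each other. Eif2s3, a translation initiation factor gene on the X chromosome, read 11.28 and 11.30 on control replicates 1 and 3 and 11.60 and 11.76 on replicates 2 and 4, against 11.63 to 11.77 on the exposed arrays. Male controls 1 to 3 read 11.20, 11.20 and 11.25, close to female control replicates 1 and 3, and male control 4 read 11.69. The labels were kept. Results are also given without the 3 control arrays whose Eif2s3 did not match the label (these 2 and male control replicate 4). A second probe set read for sex split the female controls in the same way. It read 9.475 and 9.566 on replicates 1 and 3 and 9.877 and 9.893 on replicates 2 and 4. The exposed arrays read 9.863 to 9.982 on it. Over the exposed groups of the series, Eif2s3 read 11.62 to 11.77 on arrays labelled female and 11.15 to 11.42 on arrays labelled male. If these readings mark sex, sex and exposure are partly mixed in the main comparison. Choroid plexus RNA also differed between arrays, as described below. The exposed and the control samples carry title numbers of different ranges, so that range and exposure cannot be told apart.

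With limma, 5 probe sets were called, 0.0171% of those tested: 2 rose and 3 fell. At an unadjusted p under 0.05 there were 1635 probe sets (5.60%). Only 1 of the 5 carries a gene symbol. It is Eefsec, the elongation factor that brings selenocysteine tRNA to the ribosome and so builds selenoproteins. Its signal was 9.45, 9.21, 9.46 and 9.48 on the exposed arrays and 9.70, 9.83, 9.68 and 9.64 on the controls. Every exposed array lay below every control array. The difference was -0.31 (SE 0.06, adjusted p = 0.0402, 1.24-fold lower). The call was lost when any 1 of the 8 arrays was left out, at adjusted p from 0.0523 to 0.261, and without the 3 mismatched controls, at 0.157, while the difference stayed between -0.34 and -0.25. The promoter window of Eefsec is shown because Eefsec was the single named gene called. It runs from 250 bases before to 50 bases after the RefSeq start, at chr4:122473000-122473299 on the minus strand of GRCr8.
Eefsec: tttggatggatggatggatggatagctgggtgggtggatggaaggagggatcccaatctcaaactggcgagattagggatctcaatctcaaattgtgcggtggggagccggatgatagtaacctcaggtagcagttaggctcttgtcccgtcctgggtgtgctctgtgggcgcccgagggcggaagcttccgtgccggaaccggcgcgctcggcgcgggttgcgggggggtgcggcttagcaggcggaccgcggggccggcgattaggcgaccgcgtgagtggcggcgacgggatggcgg

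The probe set with the smallest p, 10919231, carries no symbol in the annotation used here. It read 6.57, 6.46, 6.41 and 6.31 on the exposed arrays and 5.65, 5.24, 5.39 and 5.73 on the controls. The gap between the groups was wider than either group's own range. The difference was 0.93 (SE 0.14, adjusted p = 0.00226, 1.91-fold), and with any 1 array left out it stayed called, at adjusted p of at most 0.0179. The other rise, in unnamed probe set 10723579, was 0.56 (SE 0.10, adjusted p = 0.0335). Its exposed arrays read 4.94, 5.30, 5.04 and 5.22 and its controls 4.57, 4.72, 4.51 and 4.45, without overlap. Both rises lay in dim probe sets, below the array medians of 6.96 to 7.06. Without the dimmest 40% of probe sets 3 were called and 0 of them were higher, so neither rise was among them. Unnamed probe set 10863960 fell by 0.44 (SE 0.08, adjusted p = 0.0402), from 9.77, 9.81, 9.73 and 9.69 on the controls to 9.38, 9.17, 9.04 and 9.65. Exposed replicate 4 lay only just below the lowest control there. Unnamed probe set 10782804 fell by 0.37 (SE 0.07, adjusted p = 0.0402), from 9.92, 10.02, 9.96 and 9.85 to 9.62, 9.73, 9.43 and 9.50. Again the groups did not overlap. These last 3 probe sets lost their call without the 3 mismatched controls (adjusted p 0.127, 0.174 and 0.195), whereas 10919231 kept it (0.0177). In a fit of the compared groups only, 1 probe set was called and it was none of the 5. Without control replicate 1 or control replicate 4 the count was 1.

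Selenoprotein genes as a group lay near the background. Of 7 measured genes of selenoprotein synthesis, 1 was called, which is Eefsec itself, the single call among all 14506 named genes. The median difference of these 7 was -0.02. Of 19 selenoproteins none was called and the median was -0.02, beside -0.00 over all named genes. Sephs1, which makes the selenium donor, differed by -0.06 and Trnau1ap, a partner of the selenocysteine tRNA, by -0.04. Gpx4, the selenoenzyme that repairs lipid peroxides, was 8.88, 8.81, 8.77 and 8.91 on the exposed arrays and 8.99, 9.02, 8.95 and 8.93 on the controls. The groups lay apart by a narrow margin, with a difference of -0.13 (SE 0.06) and an adjusted p of 0.853.

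Mature myelin genes were higher on the exposed arrays in all 19 of 19 measured members, with a median difference of 0.25 (1.19-fold), while 47.9% of all named genes were higher. None of the 19 was called, 15 had an unadjusted p under 0.05 and 12 had groups that did not overlap. Over all named genes, 3.16% were higher at that p and 2.10% were higher without overlap. The mean log2 signal of the 19 genes was 10.79, 10.70, 10.92 and 10.81 on the exposed arrays and 10.58, 10.57, 10.52 and 10.51 on the controls, or 10.80 ± 0.09 against 10.55 ± 0.03 (SD, n = 4). Every exposed array lay above every control. The list was known to differ in these data when it was chosen, so its counts are a description. In a bulk sample, more oligodendrocytes and more RNA per oligodendrocyte cannot be told apart.

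**Figure D1:**
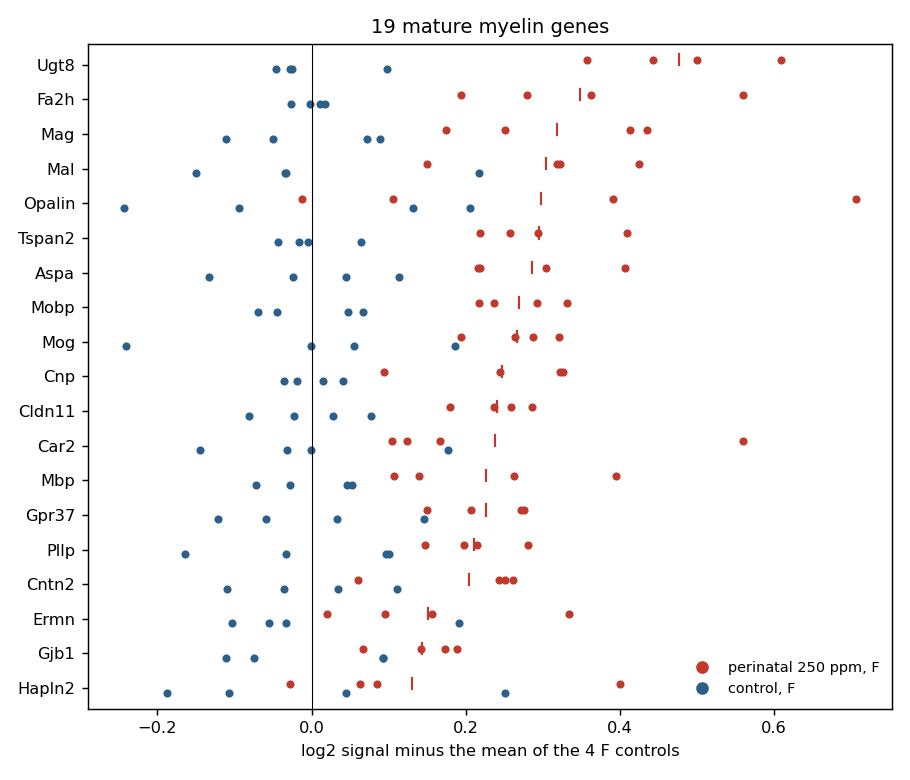
Signal of the 19 mature myelin genes on each of the 8 arrays, on the x axis as log2 signal minus the mean of the 4 female controls, with 1 row per gene; red points are exposed arrays, blue points control arrays and the red tick the exposed mean. All 19 exposed means lie above 0, from 0.13 for Hapln2 to 0.48 for Ugt8, and in 12 rows the colours do not overlap.

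Ugt8 and Fa2h, enzymes of myelin lipid, had the largest differences of the list. Ugt8, which makes the galactolipid of myelin, read 10.64, 10.72, 10.89 and 10.78 on the exposed arrays and 10.25, 10.23, 10.38 and 10.25 on the controls. No values overlapped, and the difference was 0.48 (SE 0.11, adjusted p = 0.134, 1.39-fold). Fa2h, which hydroxylates the fatty acids of these lipids, read 10.57, 10.40, 10.77 and 10.49 against 10.23, 10.22, 10.18 and 10.21. Its difference was 0.35 (SE 0.10), and the controls spanned far less than the exposed arrays. Aspa, which frees acetate for lipid synthesis, differed by 0.29 (SE 0.11). The wider list of myelin sphingolipid and fatty acid synthesis, which holds Ugt8 and Fa2h as well, had a median of only 0.03 with 14 of 19 higher, and Cers2, a ceramide synthase of long chains, differed by 0.16 (SE 0.09).

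Structural proteins of the sheath differed by 0.23 to 0.32 in the examples that follow. Mag, the adhesion protein of the inner wrap, read 11.33, 11.25, 11.51 and 11.49 on the exposed arrays and 11.15, 11.17, 10.97 and 11.03 on the controls, a difference of 0.32 (SE 0.09, adjusted p = 0.306). Cnp, a cytoplasmic enzyme that keeps channels open in the sheath, read 11.99, 11.84, 12.08 and 12.07 against 11.79, 11.71, 11.77 and 11.73, a difference of 0.25 (SE 0.06, adjusted p = 0.268). Both genes were separated between the groups, with exposed replicate 2 nearest to the controls. Cldn11, the tight junction protein of myelin, read 12.13, 12.08, 12.16 and 12.18 against 11.93, 11.97, 11.82 and 11.88. Its difference was 0.24 (SE 0.07, adjusted p = 0.306). Mobp differed by 0.27 (SE 0.08), the outer surface protein Mog by 0.27 (SE 0.09) and Mbp, which compacts the membrane, by 0.23 (SE 0.07), each without overlap. A second probe set of Mbp differed by 0.11 (SE 0.06). Members whose groups overlapped were Mal, Opalin, Ermn, Gjb1, Car2, Cntn2 and Hapln2, with differences from 0.13 to 0.30.

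Promoter windows of the myelin genes were read for the SOX-type letters ACAAAG and the MYRF-type letters CTGGCAC on either strand. RefSeq windows (GRCr8) were matched for 16 of the 19 genes. ACAAAG stood in windows of 6 genes and CTGGCAC in 5, and Cnp, Mag, Opalin and Hapln2 held both. Of all 33469 windows of the same length, 18.8% held ACAAAG, 4.75% held CTGGCAC and 0.941% held both. Windows of Cnp (chr10:86011254-86011553, plus strand) and Mag (chr1:95290995-95291294, minus strand) are shown as the pair with both motifs among the sheath proteins above, and Ugt8 (chr2:217007118-217007417, minus strand) as the member with the largest difference, which held neither. Capitals mark the motifs, which in Mag include ACAAAG read on the opposite strand, and the start lies 50 bases before the right end. A match describes letters and no binding was measured.
Cnp: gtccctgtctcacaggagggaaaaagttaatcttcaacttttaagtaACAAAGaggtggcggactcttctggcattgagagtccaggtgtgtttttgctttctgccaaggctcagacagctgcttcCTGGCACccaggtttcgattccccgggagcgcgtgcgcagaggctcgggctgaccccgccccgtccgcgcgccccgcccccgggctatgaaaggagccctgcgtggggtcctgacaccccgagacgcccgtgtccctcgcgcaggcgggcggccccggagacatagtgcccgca
Mag: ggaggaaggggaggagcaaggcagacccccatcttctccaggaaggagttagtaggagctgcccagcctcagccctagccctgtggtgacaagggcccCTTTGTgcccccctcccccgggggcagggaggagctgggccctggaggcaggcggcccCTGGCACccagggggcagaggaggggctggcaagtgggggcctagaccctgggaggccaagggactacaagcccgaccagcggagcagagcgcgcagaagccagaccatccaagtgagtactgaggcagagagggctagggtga
Ugt8: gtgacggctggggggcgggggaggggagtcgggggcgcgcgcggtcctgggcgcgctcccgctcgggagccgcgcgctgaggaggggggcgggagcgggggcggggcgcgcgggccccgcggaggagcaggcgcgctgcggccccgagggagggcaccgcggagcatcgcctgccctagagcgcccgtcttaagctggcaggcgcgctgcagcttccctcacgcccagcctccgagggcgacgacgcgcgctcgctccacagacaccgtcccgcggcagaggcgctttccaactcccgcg

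Genes of oligodendrocyte precursors and of the lineage differed less. Of 13 measured, 12 were higher, and the median difference was 0.12. Higher with an unadjusted p under 0.05 were 6, and 4 had groups that did not overlap. Over all named genes, 47.9% were higher, 3.16% were higher at that p and 2.10% were higher without overlap. This list too was chosen with earlier results of these data known, so its counts are a description. None was called. Enpp6, a marker of newly formed oligodendrocytes, read 8.09, 8.19, 8.32 and 8.09 on the exposed arrays and 7.86, 7.81, 7.88 and 7.90 on the controls, a difference of 0.31 (SE 0.13). Bcas1, another marker of that stage, differed by 0.25 (SE 0.09), Olig1, a lineage factor, by 0.21 (SE 0.08), and Gpr17, a receptor of committed precursors, by 0.16 (SE 0.07). These 4 were the separated members. Sox10 differed by 0.18 (SE 0.08) with overlap. The precursor markers Pdgfra and Cspg4 differed by -0.01 (SE 0.06) and 0.08 (SE 0.08), and the matrix protein Tnr of the same cells by 0.04 (SE 0.04), all with overlap.

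With the 4 male controls added, all 8 controls had a myelin mean of 10.50 to 10.58 and each of the 4 exposed arrays was above them. Against these 8 controls 55 probe sets were called (0.188%), 41 higher and 14 lower, and they include the 5 called above. Of the myelin genes, 4 were called higher there: Ugt8 by 0.47 (adjusted p = 0.0169), Cldn11 by 0.27 (0.0232), Cnp by 0.26 (0.0255) and Mag by 0.34 (0.0310). The same exposed arrays and female controls, on which the list was known to differ, are part of this comparison. These calls are thus no separate support. Controls of both sex labels stand on one side of this comparison and females alone on the other. Sex and exposure are thus partly mixed in it. By the Eif2s3 readings given above, the same may hold for the comparison with the female controls alone.

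The myelin list was set beside the other exposed groups, of which the female ones share their controls with this comparison. Myelin means above the highest control of 10.58 were found on 4 of 4 arrays of males exposed perinatally to 250 ppm (10.67 to 10.95), 4 of 4 of females exposed postnatally to 250 ppm (10.64 to 10.90) and 2 of 4 of females exposed perinatally to 750 ppm (10.49 to 10.87). In this last group 2 arrays lay at the level of the controls and 2 at that of the females given 250 ppm. Females exposed postnatally to 750 ppm (10.47 to 10.72) had 3 of 4 above, and males exposed perinatally to 750 ppm (10.55 to 10.65) had 1 of 4. Among males exposed postnatally, 3 of 4 were above at 250 ppm (10.49 to 10.89) and 4 of 4 at 750 ppm (10.66 to 10.77).

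**Figure D2:**
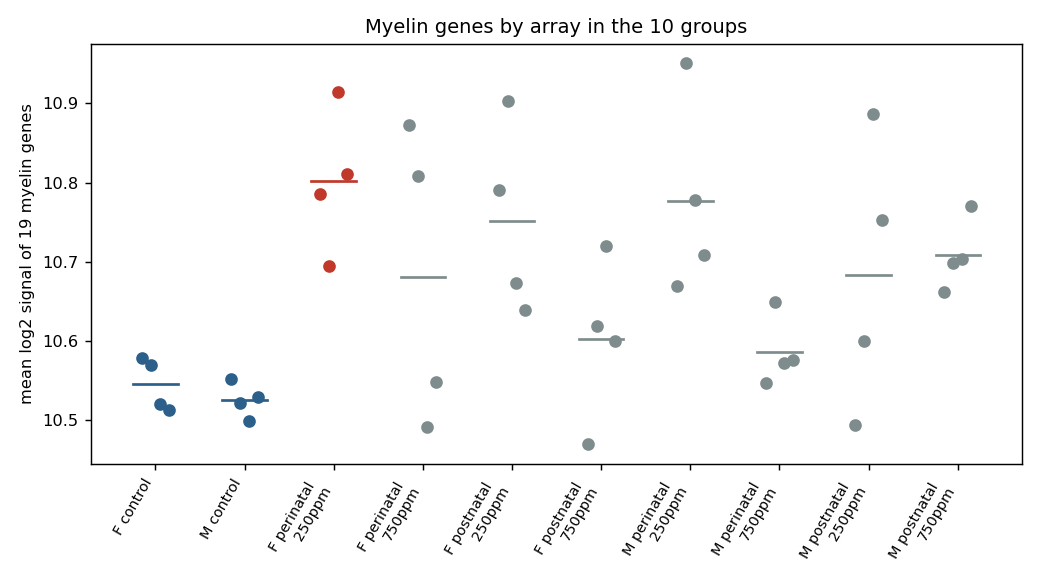
Mean log2 signal of the 19 myelin genes (y axis) on each of the 40 arrays in the 10 groups (x axis); points are arrays and lines are group means, with controls in blue and females given 250 ppm perinatally in red. The 8 controls sit between 10.50 and 10.58, and the 4 red arrays between 10.70 and 10.92.

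Choroid plexus genes, which mark a tissue attached to the hippocampus in the ventricle, were lower in all 19 of 19 members, with a median of -1.17, but none was called and in every gene the groups overlapped. Ttr, the thyroid hormone carrier that this tissue secretes, read 9.27, 9.71, 13.17 and 9.44 on the exposed arrays and 8.61, 13.35, 13.28 and 13.29 on the controls. Of the 4 exposed arrays, only replicate 3 was high, and of the 4 controls only replicate 1 was low. The difference was -1.73 (SE 1.24, adjusted p = 0.992). Kcnj13, a potassium channel of this tissue, differed by -2.01 (SE 1.30), Sostdc1, a secreted antagonist of BMP signalling, by -2.16 (SE 1.18) and Kl, the co-receptor of FGF23, by -1.76 (SE 1.14). Without control replicate 1 the list median was -1.76, and over all settings it lay between -1.76 and -0.78. With the mean of this list as a covariate the myelin median was 0.28, and exposed replicate 3, the array with the most choroid plexus RNA, had the highest myelin mean of the 4. Control replicate 1, with the least, had 10.58. The part of choroid plexus RNA in the myelin values was not tested.

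**Figure D3:**
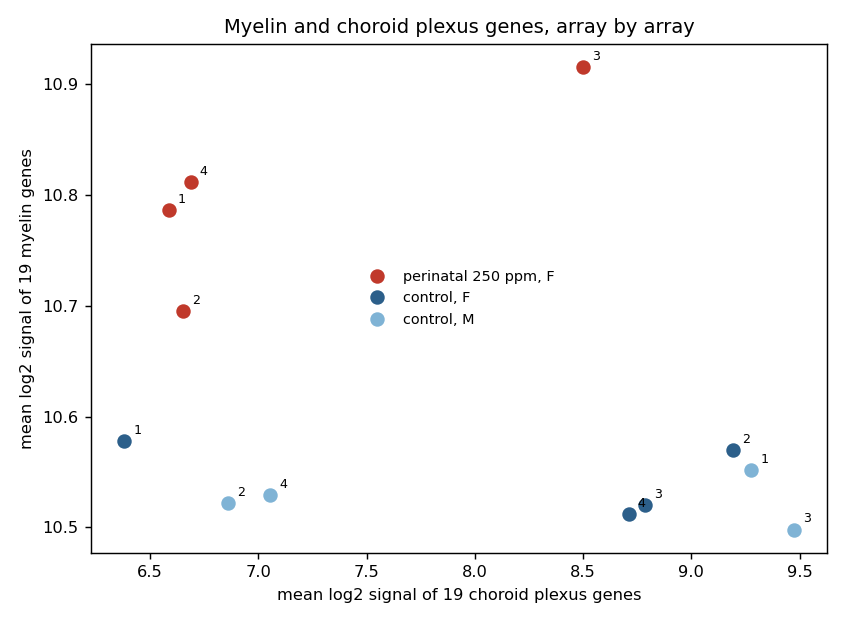
Mean log2 signal of the 19 choroid plexus genes (x axis) against that of the 19 myelin genes (y axis) on 12 arrays; points are arrays, the digit is the replicate, and colour marks exposed females, female controls and male controls. The exposed arrays lie above the controls shown. Among exposed arrays only replicate 3 has a high choroid plexus signal (8.50), the others lying at 6.59 to 6.69. Among female controls only replicate 1 is low (6.38).

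Among higher genes, the 10 named genes of smallest p with separated groups had adjusted p between 0.114 and 0.203, so none was called. Ifit1, an interferon-induced protein that binds foreign RNA, read 6.18, 5.84, 5.75 and 6.13 on the exposed arrays and 5.12, 5.19, 4.47 and 5.29 on the controls, a difference of 0.96 (SE 0.22). All 4 exposed arrays were above all controls and control replicate 3 was lowest. Kcnq3, a subunit of the M-type potassium channel that damps firing, differed by 0.19 (SE 0.04), with 10.79, 10.65, 10.77 and 10.72 against 10.60, 10.58, 10.50 and 10.52. Gabarap, which carries GABA-A receptors and builds autophagosomes, differed by 0.14 (SE 0.03). Npc1, which exports cholesterol from lysosomes, differed by 0.27 (SE 0.06), and the secreted protein Lgi3 by 0.24 (SE 0.06). The remaining members were Fbh1 (0.25), Tfcp2l1 (0.33), Nphp4 (0.30), Cyp2u1 (0.23) and Ugt8.

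Among lower genes, Eefsec was the single call and the other 9 had adjusted p between 0.0811 and 0.275. Fbln2, an extracellular matrix glycoprotein, read 7.30, 7.29, 7.97 and 7.48 on the exposed arrays and 8.62, 8.17, 8.10 and 8.53 on the controls. Its difference was -0.85 (SE 0.17, adjusted p = 0.0811), and exposed replicate 3 alone came near the controls. Htr3a, the serotonin-gated ion channel of a class of interneurons, read 7.82, 7.66, 7.28 and 7.20 against 8.04, 7.98, 7.96 and 7.87, a difference of -0.47 (SE 0.10, adjusted p = 0.113). Htr1b, a serotonin receptor that inhibits release, differed by -0.24 (SE 0.06) with 10.24, 10.07, 10.23 and 10.23 against 10.42, 10.55, 10.40 and 10.35. The vesicle protein Syt5 differed by -0.25 (SE 0.05), Fdps, an enzyme of isoprenoid and cholesterol synthesis, by -0.39 (SE 0.09), and Arpin, an inhibitor of the Arp2/3 complex, by -0.42 (SE 0.10). Cdc42ep5, Thoc6 and Dele1 made up the rest, at -0.42, -0.30 and -0.33. Against all 8 controls, Ifit1, Kcnq3, Npc1, Lgi3, Nphp4 and Ugt8 were called higher, and Eefsec, Fbln2, Htr3a, Htr1b, Fdps, Arpin, Cdc42ep5 and Thoc6 were called lower, with adjusted p from 0.00338 to 0.0294. Of all probe sets, 0.188% were called there. The genes were picked on the same exposed arrays and female controls, which are part of that comparison, so these calls are no separate support. Sex labels are mixed in it as well, and Htr3a overlapped the 8 controls.

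**Figure D4:**
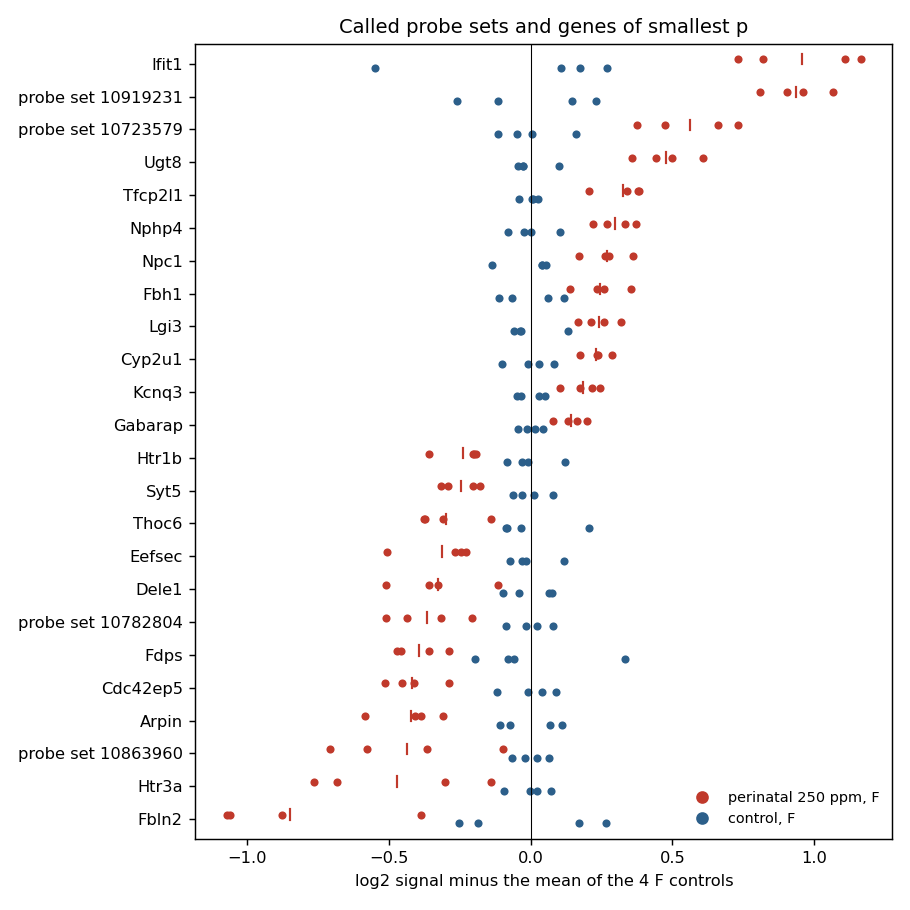
Log2 signal minus the mean of the 4 female controls (x axis) for the 5 called probe sets and the named genes of smallest p (y axis, 1 row each); red points are exposed arrays, blue points controls and the tick the exposed mean. Differences run from -0.85 for Fbln2 to 0.96 for Ifit1. The named genes were picked for groups that do not overlap, so the lack of overlap in their rows is no result. The 5 called probe sets do not overlap either.

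Of all named genes, 2.82% were lower at an unadjusted p under 0.05 and 1.63% were lower without overlap. Genes of inhibitory neurons were lower in 13 of 18 members, with a median of -0.06, and Htr3a, Kit and Reln were the 3 separated ones. GABA-A receptor subunits had a median of -0.01, and Gabrd, the extrasynaptic subunit, differed by -0.17 (SE 0.07, adjusted p = 0.712). Its groups touched, with 8.177 on both exposed replicate 3 and control replicate 1. ER chaperones were lower in 16 of 17 members with a median of -0.07 and none was called. Hspa5, the main chaperone of the ER, read 11.99, 11.91, 11.89 and 11.76 on the exposed arrays and 11.79, 12.30, 12.16 and 12.14 on the controls. Control replicate 1, the control with little choroid plexus RNA, lay at the level of the exposed arrays. Exposed replicate 3, the exposed array with much choroid plexus RNA, read 11.89, within the range of the other exposed arrays. The part of choroid plexus RNA in this list was not tested. Activity-induced genes were lower in 17 of 24 members with a median of -0.06, and Npas4, a transcription factor switched on by firing, differed by -0.68 (SE 0.42).

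Genes known from lead toxicity gave small differences. Heme synthesis and breakdown had 4 of 11 members higher and a median of -0.02. Alad, the heme enzyme that lead inhibits, read 8.70, 8.42, 8.53 and 8.55 on the exposed arrays and 8.60, 8.77, 8.65 and 8.56 on the controls, with overlap and a difference of -0.09 (SE 0.07). Metallothioneins and metal transporters had 10 of 20 higher and a median of 0.01. Mt1, which binds zinc and other metals, differed by -0.19 (SE 0.09) and Mt2A by -0.05 (SE 0.07). NMDA and AMPA receptor genes had a median of 0.00, and among them Dlg2, a scaffold protein of the postsynapse, differed by 0.10 (SE 0.04) without overlap and Grin2b, an NMDA receptor subunit, by 0.08 (SE 0.04). Calcium signalling genes were higher in 21 of 27 members, with a median of 0.03.

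**Figure D5:**
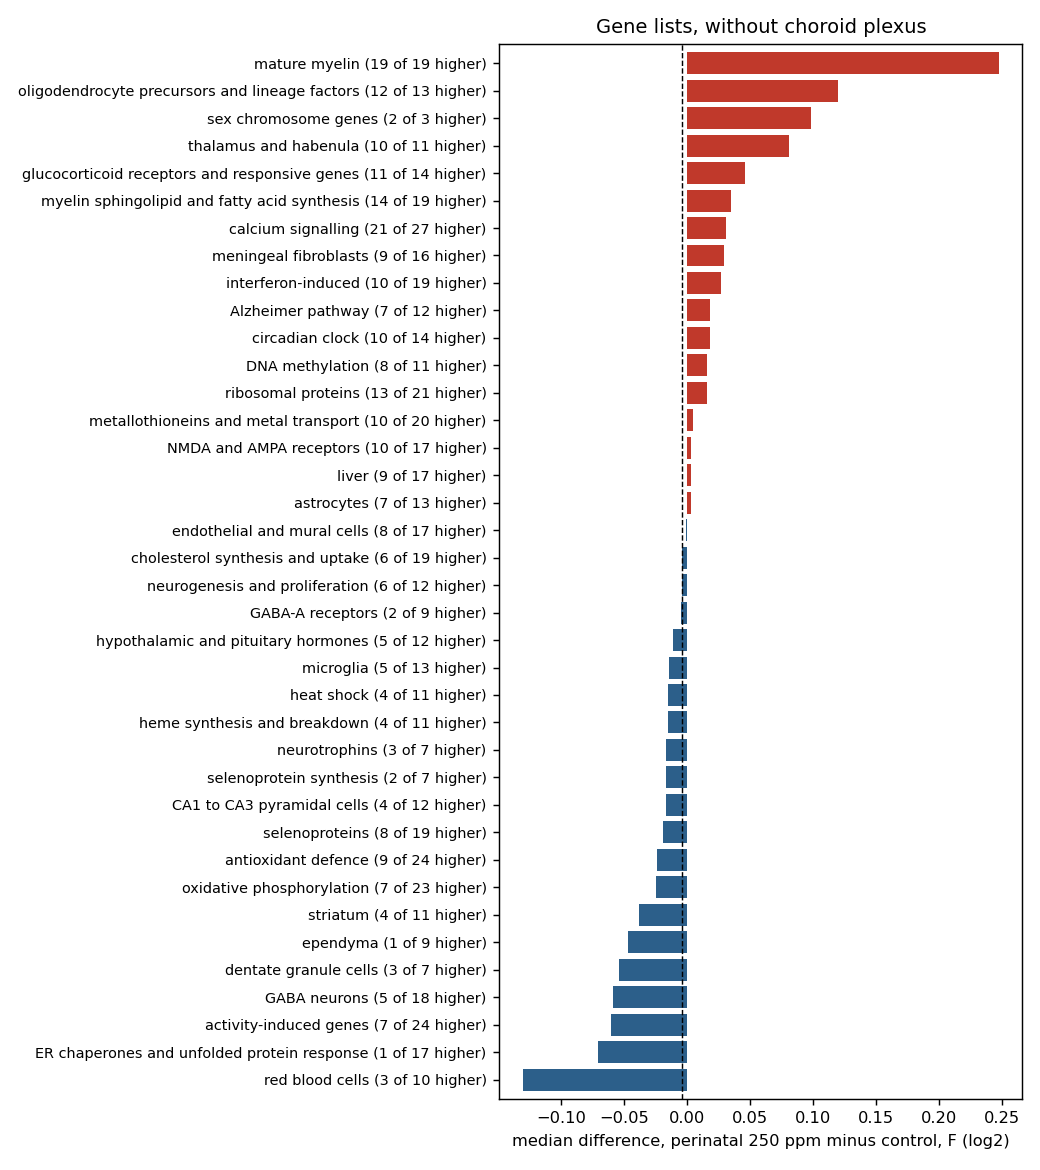
Median difference of each gene list, exposed minus control females in log2 (x axis), with the number of higher members beside each name; the dashed line is the median of all named genes, and the choroid plexus list (-1.17) is left out for scale. Mature myelin has the largest positive median, 0.25, and red blood cells the lowest shown, -0.13.

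Other cell types were close to the background. Astrocytes had a median of 0.00, microglia -0.01, endothelial and mural cells -0.00, CA1 to CA3 pyramidal cells -0.02 and dentate granule cells -0.05. Genes of the thalamus and habenula, which lie next to the hippocampus, were higher in 10 of 11 members with a median of 0.08 and none was separated. Their mean was 7.38, 7.27, 7.46 and 7.46 on the exposed arrays and 7.25, 7.35, 7.34 and 7.31 on the controls, with overlap, whereas those of the striatum had a median of -0.04. The part of thalamic RNA in the myelin values was not tested. Red blood cell genes were at -0.13, and Hbb, a beta globin, at -0.28 (SE 0.19). Meningeal fibroblast genes had a median of 0.03, ependyma -0.05 and liver 0.00. Interferon-induced genes had a median of 0.03 with members in opposite directions: Ifit1 is given above, and Mx2, an antiviral GTPase, was 8.46, 8.30, 7.26 and 8.34 on the exposed arrays and 8.64, 8.70, 9.19 and 8.80 on the controls, a difference of -0.74 (SE 0.35).

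Ldaf1, which helps lipid droplets form, was called in each of the other 7 lead groups against controls, with differences of 0.62 to 1.07, and not in this one. Here it read 8.28, 8.33, 8.34 and 8.73 on the exposed arrays and 8.28, 8.0, 8.21 and 8.10 on the controls, a difference of 0.27 (SE 0.13, adjusted p = 0.869). The difference of the female from the male response at 250 ppm was -0.80, at an adjusted p of 0.429. Set directly against females given 750 ppm perinatally it differed by -0.35 (adjusted p = 0.441). Against females given 250 ppm postnatally it differed by -0.52 (adjusted p = 0.194). None of these direct differences of Ldaf1 was called. Probe set 10919231 was called in 7 of the 8 groups, at 0.73 to 1.19, the exception being males exposed perinatally to 750 ppm (0.37). Tmem63a, an ion channel gated by membrane stretch, differed by 0.55 (SE 0.13, adjusted p = 0.210) here and by 0.66 (adjusted p = 0.0321) in males of the same exposure. Pyroxd2 differed by 0.59 (SE 0.15) and Lims2, a focal adhesion protein, by 0.33 (SE 0.09), both without overlap.

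The lower dose was also set directly against the higher dose, females given 250 ppm against 750 ppm perinatally, which uses no control array. The females given 750 ppm carry title numbers of the same range as the controls, so in this comparison too the range and the dose cannot be told apart. There 25 probe sets were called (0.0856%), 3 higher and 22 lower at 250 ppm. The count was 10 in the compared groups only and 8 without replicate 3 of the females given 750 ppm. Alb, the plasma albumin made by liver, differed by -1.15 (SE 0.14, adjusted p = 8.92e-06), while on the arrays given 250 ppm it read 5.78, 6.16, 5.95 and 6.02 and on the controls 5.86, 6.24, 6.07 and 6.18. Alb at 250 ppm was thus at the level of the controls. Apoc3, a lipoprotein of the liver, differed by -0.76 (SE 0.13, adjusted p = 0.005) and Sult1a1, a sulfotransferase, by -0.86 (SE 0.16, adjusted p = 0.0156). The metallothioneins Mt1 and Mt2A were lower at 250 than at 750 ppm, at -0.41 (adjusted p = 0.0428) and -0.36 (0.0278). The receptor tyrosine kinase gene Ret (-0.52) and Cdc42ep5 (-0.47) were lower at 250 than at 750 ppm too. Phf20l1, a chromatin reader, was higher by 0.30 (adjusted p = 0.0237). The myelin list differed by a median of 0.12 with 17 of 19 higher at 250 ppm and none called. Against the female controls, Apoc3, Sult1a1 and Ret differed by 0.041, -0.029 and 0.031 at 250 ppm. At 750 ppm they differed by 0.798, 0.828 and 0.547. Mt1 and Mt2A differed from the controls by -0.193 and -0.047 at 250 ppm and by 0.219 and 0.316 at 750 ppm. Cdc42ep5 and Phf20l1 differed by -0.417 and 0.239 at 250 ppm and by 0.052 and -0.065 at 750 ppm.

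Against the postnatal window at 250 ppm, 3 probe sets were called (0.0103%), and none without exposed replicate 2 or without postnatal replicate 1 or 3. Tnik, a kinase of the postsynapse, was higher after perinatal than after postnatal exposure by 0.55 (SE 0.10, adjusted p = 0.0235). Slc29a4, a monoamine transporter, was lower, at -0.53 (SE 0.10, adjusted p = 0.0431), and the other was unnamed. Eefsec differed by -0.29 (SE 0.06, adjusted p = 0.0708). The myelin median was 0.03. Against the female controls, Tnik differed by 0.087 after perinatal and by -0.459 after postnatal exposure. Slc29a4 differed from them by -0.221 and by 0.307, and none of these differences was called. No probe set passed limma's test of a difference between the female and the male response (0 called, 0%, smallest adjusted p 0.206). At an unadjusted p under 0.05 there were 979 (3.35%). The myelin median of that difference was -0.01 with 7 of 19 higher. By the Eif2s3 readings, both control groups of this test hold arrays that did not match their label. Without the 3 mismatched controls 0 were called as well. For Eefsec the sex difference was -0.28 at an adjusted p of 1.0, and the male response was -0.03.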

How the data were processed

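Total RNA (100 ng per sample) from rat hippocampus was measured on Affymetrix arrays, 1 per sample. The deposited values are log2 signals that the authors made by RMA (background correction, array equalisation and a summary of each probe set). Per the submitters' processing notes the tools were RMA and Partek; versions are not given in the sources used here. RMA sets all arrays to nearly the same distribution, so a shift common to most genes would not be visible. Values were used as deposited.

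A limma model (limma 3.58.1, R 4.3.3) with 10 group means used all 40 arrays, with moderated variances that follow a trend on mean signal. It gave 4 two-sided contrasts, each adjusted by Benjamini-Hochberg over 29214 probe sets. Of these, 15310 carry 1 gene symbol, 323 several and 13581 none. The brightest probe set on average stood for each gene, and 14506 genes were named. Of 654 genes in 39 lists, 564 were measured.

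Members and lists were chosen with earlier results of these data known. Named genes were the called probe sets, the 10 higher and 10 lower genes of smallest p with groups that did not overlap, up to 6 members of each list, all members of the myelin, precursor, choroid plexus, red blood cell, selenoprotein synthesis and sex lists, genes known from lead toxicity, genes called in other exposures, and up to 5 genes of each other contrast. The fit was tested on simulated data. Settings tried were leaving out the dimmest 40% of probe sets, quantile normalization on top of RMA, the compared groups only, array weights, no variance trend, the choroid plexus mean as covariate, leaving out the 3 mismatched controls, all 8 controls, and leaving out each array. Replicates are numbered in accession order. Promoters are RefSeq windows. Figures were drawn with matplotlib 3.10.9.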

Additional observations from a re-analysis of the deposited data

Results flagged for a closer look

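In a group of 4 arrays, 1 value was set apart by Dixon's criterion in 29 of 310 groups checked, where chance gives about 1 in 20. The choroid plexus gave most of them. On exposed replicate 3, Ttr read 13.17 (nearest other array 9.71), Kl 9.31, Clic6 9.37, Slc4a5 9.02, Sostdc1 8.95, Folr1 8.02 and Aqp1 8.23, and the list mean was 8.50 (nearest 6.69). On control replicate 1, Ttr read 8.61 (nearest 13.28), Kl 5.99, Kcnj13 5.64, Clic6 5.42, Slc4a5 5.95 and Sostdc1 5.93, and the list mean was 6.38 (nearest 8.71). Exposed replicate 3 also stood apart for Car2 (11.48), Gpx1 (9.49) and Mx2 (7.26).

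Single genes stood apart on other arrays. Exposed replicate 2 was low for Eefsec (9.21, nearest 9.45), Htr1b (10.07, nearest 10.23) and Cntn2 (9.96, nearest 10.15), and exposed replicate 4 was high for Ldaf1 (8.73, nearest 8.34). Control replicate 1 was high for Lgi3 (11.19), low for Sult1a1 (8.26) and low in the mean of the microglia list (8.22). Ugt8 was high on control replicate 3 (10.38), where the activity-induced list was low (8.79). Srebf2 was high on control replicate 2 (10.88) and Npc1 was low on control replicate 4 (9.74).

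By limma's test of the difference itself, females exposed perinatally to 250 and 750 ppm differed at 25 probe sets. Among named genes the differences (250 minus 750 ppm) were -1.15 for Alb, -0.76 for Apoc3, -0.86 for Sult1a1, -0.52 for Ret, -0.47 for Cdc42ep5, -0.41 for Mt1, -0.36 for Mt2A and 0.30 for Phf20l1. Perinatal and postnatal exposure to 250 ppm differed at 3 probe sets, among them Tnik (0.55) and Slc29a4 (-0.53).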

How the results depend on the processing

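The 5 calls against female controls became 3 without the dimmest 40% of probe sets, 2 without a variance trend, 1 in the compared groups only, 14 with array weights, 10 with the choroid plexus mean as covariate, 9 without the 3 mismatched controls and 55 against all 8 controls. The 3 calls without the dimmest probe sets were all falls, and neither of the 2 rises was among them. Without 1 array the count was 1 to 5: 1 without control replicate 1 or 4, 2 without control replicate 3 or exposed replicate 4, and 3 without exposed replicate 2. The 25 calls between doses became 16 without the dimmest probe sets, 10 in the compared groups only and 49 with array weights, and 8 to 26 without 1 array (14 and 12 without exposed replicates 2 and 3, 15 and 8 without replicates 2 and 3 of the females given 750 ppm). The 3 calls between windows became 9 without the dimmest probe sets, 9 after quantile normalization, 6 in the compared groups only and 24 with array weights, and 0 to 9 without 1 array (9 without exposed replicate 3 or 4, 1 without exposed replicate 1 or postnatal replicate 4, 0 without exposed replicate 2 or postnatal replicate 1 or 3). The sex difference gave 0 to 2 without 1 array. The cause of these changes was not tested. The myelin median stayed between 0.22 and 0.29 over the settings tried for it, and the choroid plexus median between -1.76 and -0.78.

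Of 1494 gene values under other settings, 20 turned in sign, all in genes that were not called and lay near 0. With the choroid plexus covariate, Pdgfra was 0.024, Apoc3 -0.022, Sult1a1 0.007 and Ret -0.007. Without the mismatched controls, Nkx6-2 was -0.038 and Apoc3 -0.022. Against all 8 controls, Apoc3 was -0.005 and Sult1a1 0.031. Without 1 array, Pdgfra ran from -0.053 to 0.019, Nkx6-2 from -0.033 to 0.142, Sult1a1 from -0.158 to 0.022, Mt2A from -0.108 to 0.038 and Ret from -0.038 to 0.133. No paired analysis was possible because the labels give the groups no shared replicate numbers. Signals near the background of the array limit what dim genes can show, and 4 arrays a group limit the rest.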
